A study of Bos taurus with 8 samples.

Results

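The genes described here encode the machinery that copies DNA and the regulators of entry into S phase, and were compared between granulosa cells of growing and plateau follicles of the cow. The list held 35 genes, set by their function and found on the array by gene symbol, and each was read from its probe of highest mean intensity. A probe was found for 34 of them, among 15216 named genes, and no probe carried the symbol GINS2 here. In total, 54 of the 21790 probes with a gene name belonged to these genes, and the array held 43794 probes that were not control spots.

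Granulosa cells, the follicle's inner cell layer that feeds the oocyte and makes oestradiol, were scraped from the wall of individual dominant follicles of more than 9 mm in ovaries of Holstein cattle taken at slaughter. The growing group held 4 follicles and the plateau group held another 4, with no treatment in either, and the animals' ages and cycle stage are not given. Each growing follicle was hybridised against 1 plateau follicle on a bovine EmbryoGENE array with Cy5 and Cy3 dyes, and again with the dyes exchanged, which gave 4 follicle pairs on 8 arrays. The RNA was amplified by in vitro transcription before 825 ng was labelled. Stage was assigned from the DNA content of the cells by flow cytometry: the shares of cells in G1, S and G2 were added and the share with less than a G1 content was subtracted. In this sum a cell in S phase counts the same as a cell in G1. The stages were thus set on DNA content, though on the share of cells with too little DNA and not on the share in S phase. Whether the follicles came from different cows is not given in the sources used here, so the p-values measure the spread between these follicle pairs.

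DNA is copied once in each cell cycle. In G1, the origin recognition complex, CDC6 and CDT1 load the MCM helicase on origins, and in S phase CDC45, the GINS complex and MCM10 switch it on so that the polymerases can follow it. Most of the genes are transcribed by E2F factors once cyclins and their kinases, cyclin E among them, have inactivated the RB protein. Granulosa cells multiply while the follicle grows and leave the cycle when they luteinise.

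Levels are given for each follicle as the log2 intensity averaged over its Cy5 and Cy3 reading, and ratios as log2 of plateau over growing, so that a positive ratio means higher in plateau. A gene was called at the study's criterion when its stages differed by more than 1.5-fold at an unadjusted p under 0.05 and its probe reached 7 in mean log2 intensity. Of the 34 genes, 26 were above background in every reading of both stages and none was saturated. The dimmest were POLE, MCM10, POLD1 and ORC1: POLE was above background in 1 of 8 readings of each stage, MCM10 in 3 of 8 of each, POLD1 in 4 growing and 2 plateau readings, and ORC1 in 4 growing and 6 plateau readings. The ratio of a dim gene is drawn towards 0 on this scale.

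All 12 granulosa markers examined, among them FSHR, CYP19A1 and FOXL2, were above background in at least 4 of the 8 readings of each stage. The plateau follicle of pair 3 stood apart from the others: the summed intensity of the granulosa markers was 19221 in it, against 73304 to 261091 in the growing follicles and at least 69710 in the other plateau follicles. Its summed smooth muscle and fibroblast markers reached 169453, with COL1A2 and ACTA2 far above their levels elsewhere, while no other follicle exceeded 19022. The other markers of that list were also highest in it, except PDGFRB (7.85) and MYH11, which was lowest in it at 7.26. Leukocyte markers summed to 7991 in that follicle and 5666 in the plateau follicle of pair 2, against 2145 to 2701 in the other follicles. The granulosa marker GATM was not low in plateau follicle 3: its log2 level of 12.13 was exceeded only in plateau follicle 2 (13.48). In each of the sums above the brightest markers weigh most. Single granulosa markers were also low in other follicles. CYP19A1, the aromatase, had a log2 level of 8.06 in plateau follicle 2 and of 8.15 in growing follicle 2, both below the 8.80 of plateau follicle 3, and 11.92 or more in the other follicles. AMH was 7.98 in plateau follicle 2 and 8.06 in plateau follicle 3, against 9.99 or more elsewhere. Endothelial markers summed to 1847 to 4137 and theca markers to 1782 to 5154 over all 8 follicles. The part of these differences in the results was not tested, and the main counts below are given with and without the plateau follicle of pair 3 and with pair 2 left out.

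No gene of the set met the criterion, where 1.03% of all named genes did (0.506% higher and 0.526% lower in plateau follicles). After Benjamini-Hochberg adjustment of the limma p-values none passed 0.05, nor did any of the 43794 probes (0%, lowest adjusted p 0.9999), while 1152 probes (2.63%) had an unadjusted p under 0.05. None of the 34 genes was among those, the lowest unadjusted p being 0.0998, for MCM2. By direction alone, 8 of the 34 genes were higher in plateau follicles and 26 were lower, so that 23.5% were higher against 51.1% of all named genes. The ratios were small, from -0.68 for TK1 to 0.42 for CCNE1, with a median of -0.08 against 0.00 over all named genes. For each of the 34 genes, the SD of the ratio over the pairs was larger than the mean ratio itself. The stages overlapped for all 34, where 1.52% of all named genes had stages that did not overlap. MCM2 and CCNE2 alone of the 34 had the same direction in all 4 pairs, where 9.06% of all named genes did, and MCM2 did so only by its brightest probe. In whole scrapings, fewer cycling cells and less of these RNAs in each cell cannot be told apart.

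The direction of the set depended on 1 pair. The median ratio over the 34 genes was 0.25 in pair 1, 0.15 in pair 2, -0.09 in pair 3 and -0.83 in pair 4. Accordingly, 22 genes were higher in plateau in pair 1 and 23 in pair 2, but 10 in pair 3 and 7 in pair 4. The lowest of a gene's ratios fell in pair 4 for 24 of the 34. Without pair 4, the median ratio was 0.11 and 21 genes were higher in plateau follicles. Leaving out only the plateau follicle of pair 3, in a fit of follicles without pairing, gave a median of -0.28 with 6 genes higher and 0 at the criterion. Without pair 2 the median was -0.12, with 12 genes higher and 0 at the criterion.

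**Figure D1:**
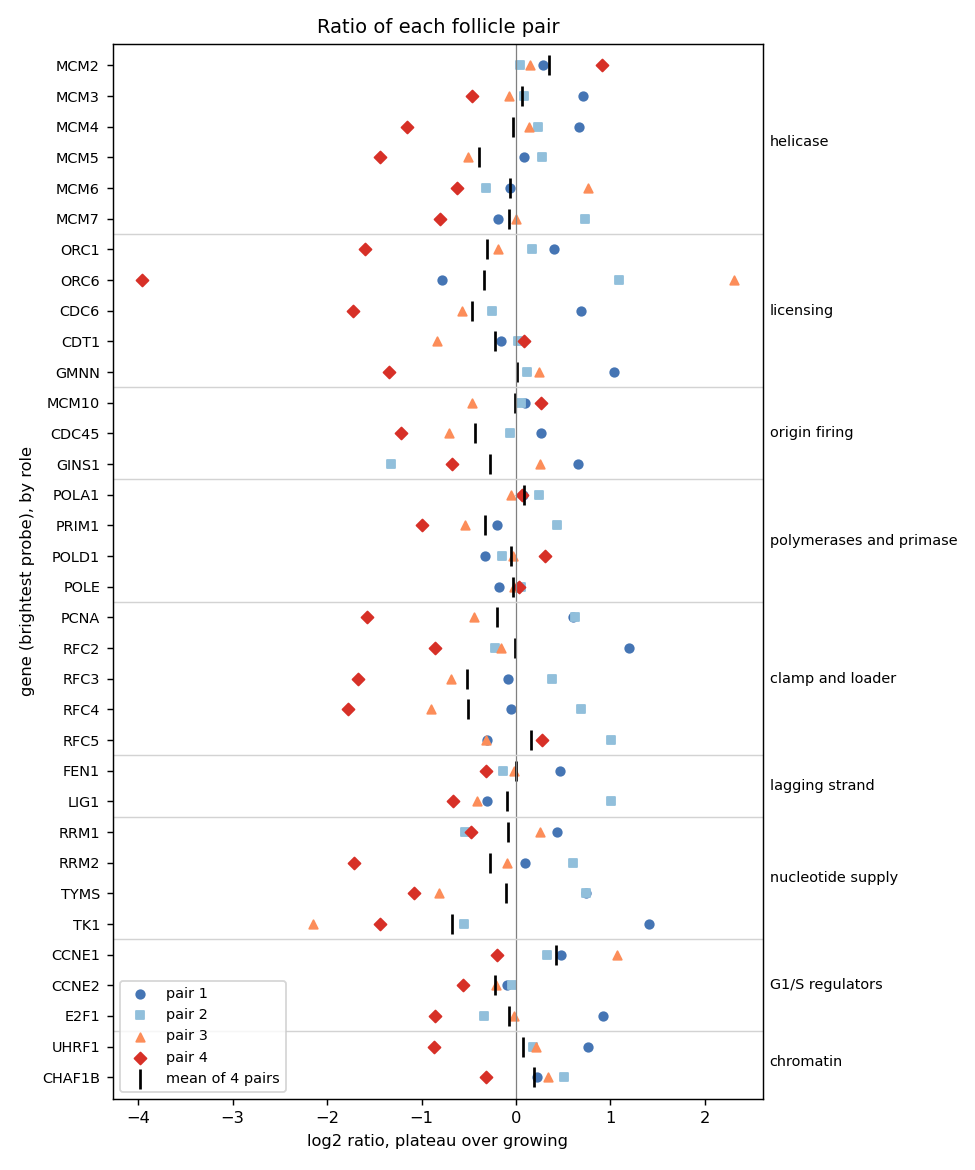
Ratio of each gene in each of the 4 follicle pairs, on a log2 scale of plateau over growing, with genes ordered by role and a black bar for the mean of the pairs. Pair 4 lies furthest left for 24 of the 34 genes, and pair 1 and pair 2 lie mostly to the right of 0.

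The larger differences lay between follicles of the same stage. Each gene's level was set against its own mean over the 8 follicles, and the median of these deviations over the 34 genes was taken in each follicle. In growing follicles 1 to 4 this median was -0.43, -0.58, 0.42 and 0.88, and in plateau follicles 1 to 4 it was -0.09, -0.40, 0.22 and 0.02. Growing follicles 3 and 4 were thus the high ones and growing follicles 1 and 2 the low ones, with the plateau follicles between them. The plateau medians were likewise higher in follicles 3 and 4 than in 1 and 2. Partners were read on the same arrays, so a difference between pairs and one between array positions cannot be told apart. Growing follicle 4 held the highest level of 23 of the 34 genes, growing follicle 2 the lowest of 14 and growing follicle 1 the lowest of 8. For 26 genes, growing follicles 3 and 4 were both above growing follicles 1 and 2. The plateau mean lay inside the range of the growing follicles for 32 genes, and all 4 plateau follicles lay inside it for 21. The granulosa marker sums of growing follicles 1 to 4 were 73304, 131331, 261091 and 191456, and those of plateau follicles 1 to 4 were 275737, 69710, 19221 and 271067. These sums were lower in growing follicles 1 and 2 than in 3 and 4, as were most of the replication genes, but lowest in plateau follicle 3, where the replication genes were above their mean. Not every granulosa marker followed its sum. GATM had log2 levels of 11.86 and 11.74 in growing follicles 1 and 2 against 8.54 and 8.32 in 3 and 4. NR5A2 had 13.6 and 13.0 against 12.1 and 12.3. The sums of other cell types' markers also differed along this split: the endothelial sums of growing follicles 1 to 4 were 2941, 4137, 1960 and 2005, and the smooth muscle and fibroblast sums 15066, 19022, 12429 and 12318. KDR had log2 levels of 10.48 and 11.27 in growing follicles 1 and 2 against at most 7.52 in 3 and 4, and DCN 9.92 and 11.16 against 8.68 and 7.95. No other marker of the endothelial and smooth muscle lists was higher in both growing follicles 1 and 2 than in 3 and 4. CLDN5, an endothelial marker, went the other way, with 8.38 and 8.92 against 9.13 and 9.33. ACTA2 of the smooth muscle list did so too, with 12.65 and 12.71 against 12.82 and 12.84. Theca sums of growing follicles 1 to 4 were 4611, 4903, 4026 and 2598, and leukocyte sums 2680, 2701, 2261 and 2275. Of the theca list, PTCH1 and GLI1 were higher in both growing follicles 1 and 2 than in 3 and 4, and INSL3 was lower. Of the leukocyte list, LAPTM5, PTPRC, CD68, CD14 and AIF1 were higher in the same way, and FCER1G was lower. LAPTM5 had 8.39 and 8.51 against 7.36 and 7.19. The part of these markers in the result was not tested.

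**Figure D2:**
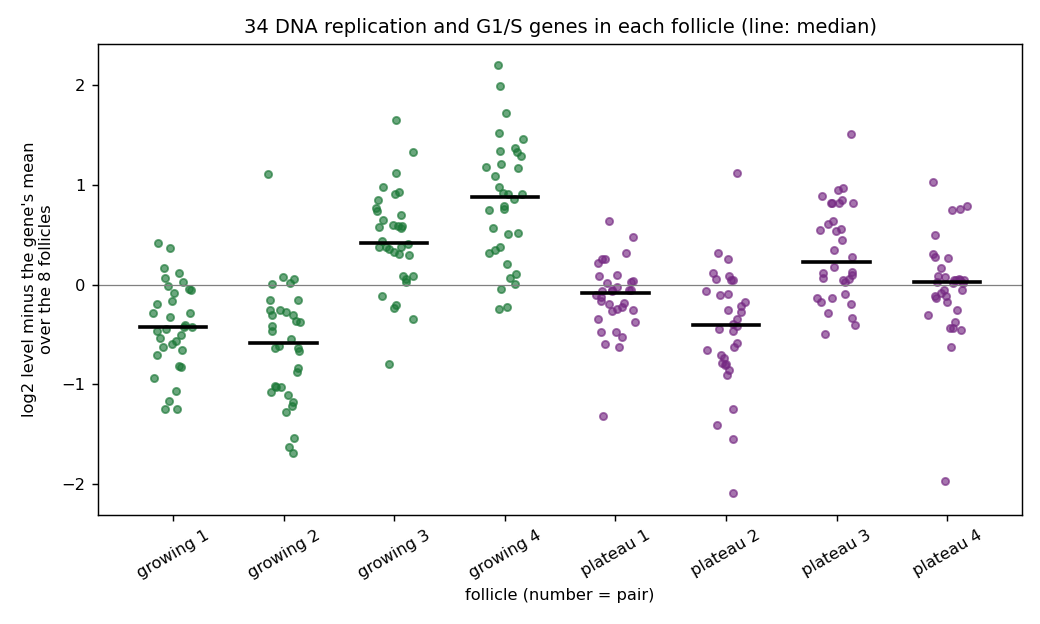
Level of each of the 34 genes in each follicle (points), as the log2 level minus that gene's mean over the 8 follicles, with a black line at the median. The medians of the growing follicles run from -0.58 to 0.88 and those of the plateau follicles, from -0.40 to 0.22, lie within them.

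The spread between follicles was larger in the growing than in the plateau group for 29 of the 34 genes (85.3%), against 44.4% of all named genes. The median SD of the 34 genes was 0.87 in growing and 0.50 in plateau follicles (n = 4 each), where all named genes had 0.23 and 0.26. Many of the named genes are dim, and a dim gene's spread is small. Among genes above background in every reading, the 26 of the set had 0.87 and 0.52, with the growing SD larger for 80.8%. The 7579 such named genes had 0.37 and 0.40, with the growing SD larger for 43.9%. The larger growing SD was not particular to the set. It was found for 28 of the 31 mitosis genes described below (90.3%), whose median SDs were 1.40 and 0.99. Among the 65 other replication genes described below it was found for 43 (66.2%), with 0.38 and 0.33. Leaving out each pair in turn left between 24 (without pair 4) and 32 (without pair 3) of the 34 genes with the larger SD in growing follicles. Because genes of 1 pathway share the same 8 follicles, these counts describe the follicles and are not 34 separate observations.

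The helicase genes were MCM2 to MCM7, whose proteins form the ring that unwinds DNA at the fork. MCM5 had log2 levels of 9.51, 8.39, 11.40 and 11.79 in growing follicles 1 to 4 and of 9.60, 8.67, 10.89 and 10.36 in plateau follicles 1 to 4. Its highest follicle, growing follicle 4, was 10.5-fold above its lowest, growing follicle 2, and the plateau follicles lay between these. The mean ratio was -0.39 ± 0.77 (SD, n = 4 pairs), with a 95% interval of -1.21 to 0.42. MCM3 followed the same order, with 8.86, 7.86, 10.42 and 10.70 in the growing and 9.57, 7.94, 10.34 and 10.24 in the plateau follicles. Follicle 2 of each stage was low and the stages overlapped, and the ratio was 0.06 ± 0.49. MCM4, the brightest of the 6, had 9.88, 9.27, 10.60 and 11.47 in growing and 10.55, 9.50, 10.74 and 10.31 in plateau follicles. It was highest in growing follicle 4 and lowest in growing follicle 2, and the ratio was -0.03 ± 0.79.

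MCM2 stood apart from the other helicase genes. Its levels were 9.51, 9.98, 9.63 and 10.09 in growing and 9.79, 10.03, 9.78 and 11.00 in plateau follicles. Only plateau follicle 4 was above the growing range, and each plateau follicle was above its growing partner. The ratio of 0.35 ± 0.39 (95% interval -0.10 to 0.79) had an unadjusted p of 0.0998 in limma and an adjusted p of 0.9999. The second MCM2 probe, above background in 15 of 16 readings, gave a ratio of -0.24 and was highest in growing follicles 3 and 4, so the direction of MCM2 depended on the probe. MCM6 and MCM7 had narrower ranges of 1.44 and 1.38 over the 8 follicles, with ratios of -0.06 ± 0.59 and -0.07 ± 0.63.

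Licensing genes act before S phase: ORC1 and ORC6 are subunits of the origin recognition complex, CDC6 and CDT1 load the helicase, and geminin (GMNN) binds CDT1 and stops a further round of loading. CDC6 had log2 levels of 7.87, 7.97, 9.37 and 9.81 in growing follicles and 8.56, 7.73, 8.80 and 8.09 in plateau follicles. Growing follicles 3 and 4 were above all plateau follicles, and growing follicles 1 and 2 were below most of them. The ratio was -0.47 ± 0.996, with a 95% interval of -1.50 to 0.57 and an unadjusted p of 0.299 in limma. The CDC6 probe was above background in 6 of 8 readings of each stage, so its lowest levels are near background. A second, dimmer CDC6 probe had a ratio of -0.12 and followed the first less closely (r = 0.43). ORC1 and GMNN had the same order of growing follicles 3 and 4 over 1 and 2, with ranges of 2.22 and 2.68 and ratios of -0.30 ± 0.90 and 0.01 ± 0.99.

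ORC6 varied most of the licensing genes and in an order of its own. It had levels of 10.96, 11.51, 10.70 and 13.48 in growing and 10.18, 12.61, 13.00 and 9.53 in plateau follicles. Growing follicle 4 was highest and its partner, plateau follicle 4, lowest, while in pair 3 the plateau follicle was the higher one. The ratios of the pairs accordingly ran from -3.96 in pair 4 to 2.30 in pair 3, with a mean of -0.34 ± 2.73. The dyes differed for this probe by up to 1.34 on either side of the mean, and its ratio was -1.18 on the arrays with plateau in Cy5 and 0.51 on those with growing in Cy5. A second ORC6 probe, above background in all readings, had a ratio of 0.06 ± 0.60. CDT1 also differed with the dye, with ratios of -0.76 and 0.31 in the same orders and a mean of -0.22 ± 0.42.

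Of the genes of origin firing, which activate the helicase, CDC45, GINS1 and MCM10 were measured. GINS1, a subunit of the GINS complex, had levels of 10.88, 13.23, 12.50 and 12.43 in growing and 11.53, 11.90, 12.76 and 11.75 in plateau follicles. Growing follicle 2 was highest and growing follicle 1 lowest, which was not the order of most of the other genes. A second GINS1 probe followed it closely over the 8 follicles (r = 0.99), but a further one, above background in all readings, did not (r = 0.04). The ratio of GINS1 was -0.27 ± 0.90, that of CDC45 -0.43 ± 0.67, and that of the dim MCM10 -0.01 ± 0.32.

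Among the polymerases, POLA1 encodes the catalytic subunit of polymerase alpha, which starts each new strand with the primase PRIM1, while POLD1 and POLE encode the catalytic subunits of the polymerases that extend it. POLA1 had the smallest SD over the pairs among the genes above background in every reading. It had levels of 9.23, 9.05, 8.98 and 9.41 in growing and 9.30, 9.29, 8.93 and 9.48 in plateau follicles. The stages covered almost the same range, and the ratio was 0.08 ± 0.12 with a 95% interval of -0.14 to 0.31. The sign turned with the dye order, from -0.09 with plateau in Cy5 to 0.25 with growing in Cy5. PRIM1 had a range of 1.53, with a ratio of -0.33 ± 0.60. Its plateau SD was 0.07 and its growing SD 0.65. POLD1 and POLE were near background, and their ratios of -0.05 ± 0.27 and -0.03 ± 0.10 say little about these polymerases.

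PCNA and RFC2 to RFC5 are the clamp and its loader. PCNA, the ring that holds the polymerases on DNA, had log2 levels of 12.87, 12.48, 14.68 and 15.16 in growing and 13.47, 13.11, 14.24 and 13.59 in plateau follicles. Growing follicles 3 and 4 were above, and growing follicles 1 and 2 below, all 4 plateau follicles, with a 6.4-fold distance from lowest to highest. The ratio of -0.20 ± 1.05 (95% interval -1.29 to 0.89) thus averaged 2 pairs that were higher and 2 that were lower in plateau. Each of the other 3 PCNA probes was above background in all readings, and they followed the brightest one with r of 0.98, 0.98 and 0.87. Their ratios were -0.48, -0.43 and -0.56.

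RFC4, a subunit of the loader that opens the ring, had levels of 9.08, 8.86, 10.27 and 10.83 in growing and 9.03, 9.55, 9.37 and 9.05 in plateau follicles. The plateau follicles lay close together, with an SD of 0.25 against 0.94 in growing follicles, and below growing follicles 3 and 4. RFC3 had 11.29, 10.94, 12.16 and 12.95 in growing and 11.20, 11.32, 11.48 and 11.27 in plateau follicles. Again growing follicles 3 and 4 were above every plateau follicle, whose SD was 0.12 against 0.90. The ratios were -0.51 ± 1.07 for RFC4 and -0.52 ± 0.89 for RFC3, with 95% intervals of -1.62 to 0.60 and -1.45 to 0.41. RFC5 had 12.96, 11.62, 13.28 and 13.41 in growing and 12.66, 12.63, 12.95 and 13.68 in plateau follicles. Growing follicle 2 was low and plateau follicle 4 high, and the ratio was 0.16 ± 0.63. The other RFC5 probes, none above background in all readings, had ratios of -0.07, -0.21 and -0.02, so the direction of RFC5 depended on the probe. RFC2 had the growing split with a range of 2.42, and a ratio of -0.01 ± 0.86.

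**Figure D3:**
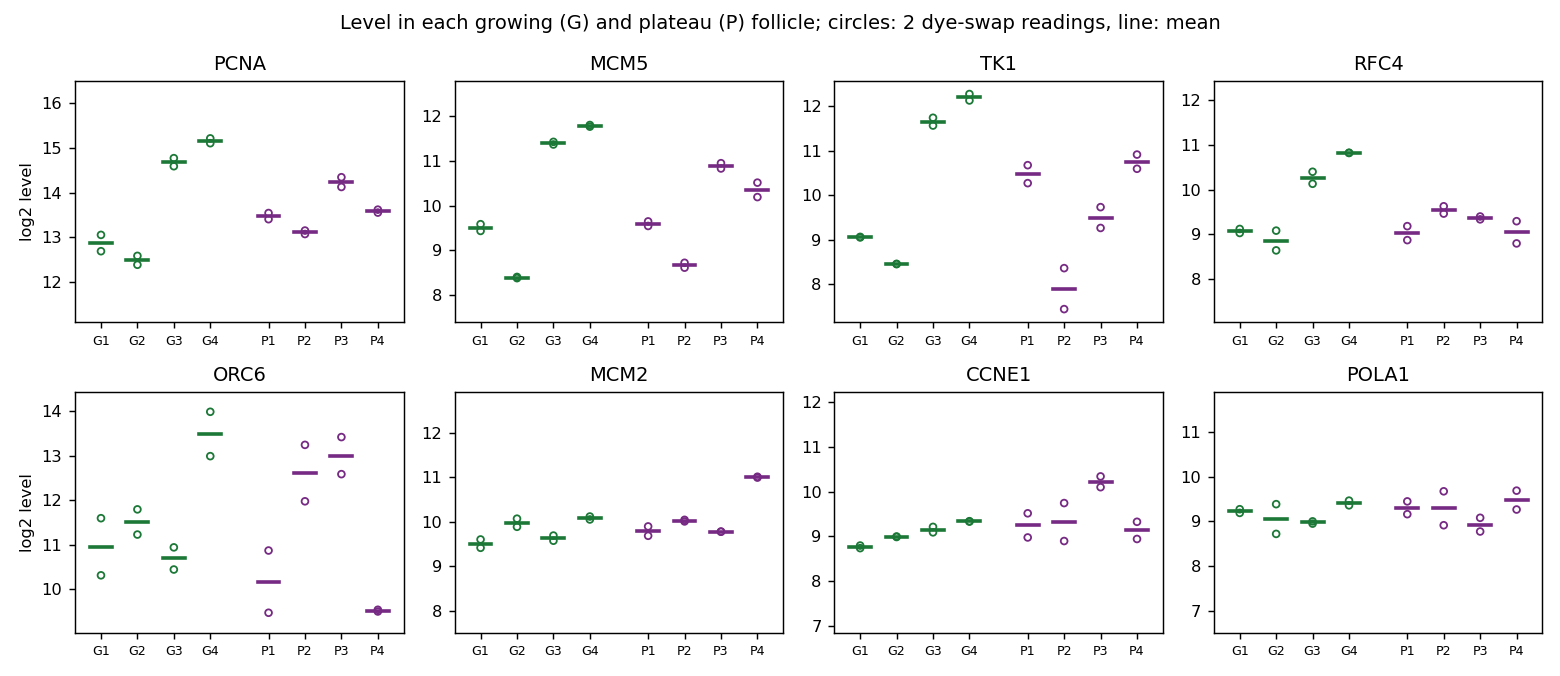
Log2 level of 8 genes in each follicle, where G1 to G4 are growing follicles 1 to 4 and P1 to P4 plateau follicles 1 to 4; circles are the readings in each dye and lines their mean, and each vertical axis spans the same number of log2 units. PCNA, MCM5, TK1 and RFC4 are high in growing follicles 3 and 4 and low in 1 and 2, POLA1 is level over the 8 follicles, and the readings of ORC6 differ between dyes.

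FEN1 and LIG1 finish the lagging strand, the first by cutting flaps and the second by sealing nicks. FEN1 had log2 levels of 8.12, 8.31, 8.93 and 8.91 in growing and 8.59, 8.17, 8.91 and 8.60 in plateau follicles. The plateau follicles were all inside the growing range, and the ratio was 0.00 ± 0.34 with a 95% interval of -0.39 to 0.39. LIG1 had 9.96, 8.91, 10.59 and 10.76 in growing and 9.66, 9.92, 10.18 and 10.09 in plateau follicles. Growing follicle 2 was the low one, and the ratio was -0.09 ± 0.75.

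The enzymes of nucleotide supply were all lower in plateau follicles by their mean, none past the test. TK1, which phosphorylates thymidine, had the widest range of all 34 genes. Its levels were 9.06, 8.46, 11.65 and 12.19 in growing and 10.47, 7.91, 9.50 and 10.75 in plateau follicles. Growing follicle 4 was highest and plateau follicle 2 lowest, with readings of 8.37 and 7.45, near background, and plateau follicles 1, 3 and 4 lay between the high and low growing follicles. The ratio of -0.68 ± 1.54 was the lowest of the set, with a 95% interval of -2.27 to 0.91 and an unadjusted p of 0.317 in limma. Because TK1 was above background in 7 of 8 plateau readings, no fold is given for its range. Without pair 1, in which it was higher in plateau by 1.41, TK1 had a ratio of -1.38 and met the criterion (limma, unadjusted p 0.0162, adjusted p 0.720).

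RRM1, the large subunit of ribonucleotide reductase, had levels of 11.95, 12.71, 13.58 and 13.99 in growing and 12.39, 12.16, 13.83 and 13.51 in plateau follicles. Follicles 3 and 4 were high and follicles 1 and 2 low in both stages, and the ratio was -0.08 ± 0.50. RRM2, the small subunit of the enzyme, had a ratio of -0.28 ± 1.001, but its brightest probe gave -1.24 on the arrays with plateau in Cy5 and 0.69 on the others. The next RRM2 probe had a ratio of 0.30 ± 1.69 and was also higher in growing follicles 3 and 4 than in 1 and 2. TYMS, which makes thymidylate, had a ratio of -0.10 ± 0.98, higher in plateau in pairs 1 and 2 and lower in pairs 3 and 4. Its second probe did not share this order (r = -0.48).

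**Figure D4:**
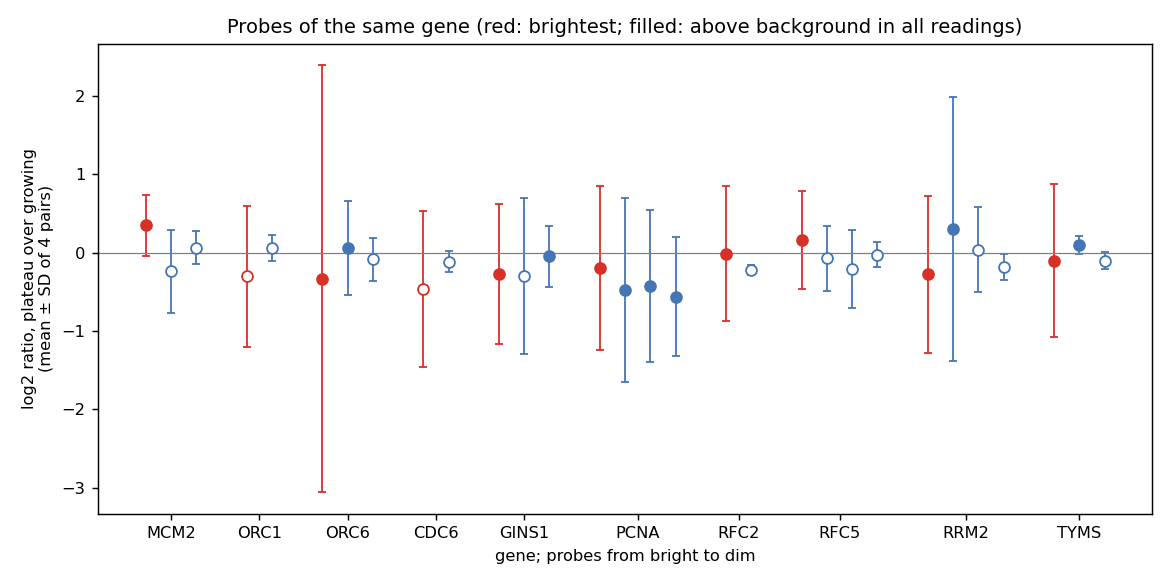
Mean log2 ratio of plateau over growing, with the SD over the 4 pairs as bars, for each probe of the 10 genes with more than 1 probe, from bright to dim; red marks the brightest probe and filled points were above background in all readings. The probes of PCNA lie together below 0, while the mean ratios of MCM2, ORC1, ORC6, RFC5, RRM2 and TYMS differ in sign between probes. The dimmer ORC1 probe was above background in 0 of 8 readings of each stage, so its sign says little about ORC1.

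Of the G1/S regulators, cyclin E (CCNE1 and CCNE2) activates the kinase that opens S phase and E2F1 drives transcription of the genes needed in it. CCNE1 had log2 levels of 8.76, 8.99, 9.15 and 9.33 in growing and 9.24, 9.32, 10.22 and 9.13 in plateau follicles. Only plateau follicle 3, the one with high fibroblast markers, was above the growing range. The ratio of 0.42 ± 0.52 (95% interval -0.15 to 0.99, limma unadjusted p 0.116) was the highest of the set. Without that follicle it was 0.17, and on the arrays with plateau in Cy5 it was 0.14 against 0.69 on the others. Without pair 4 it was 0.63 and met the criterion (limma, unadjusted p 0.0346, adjusted p 0.9998). CCNE2 was lower in plateau in all 4 pairs, with a ratio of -0.23 ± 0.24 (limma, unadjusted p 0.116) that was less than 1.5-fold. E2F1 had 8.76, 9.00, 10.04 and 10.21 in growing and 9.68, 8.66, 10.02 and 9.35 in plateau follicles. The high ones were growing follicles 3 and 4 and plateau follicle 3, and the ratio was -0.07 ± 0.74.

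The chromatin genes act behind the fork: UHRF1 brings the maintenance methyltransferase to newly copied DNA, and CHAF1B is a subunit of chromatin assembly factor 1. UHRF1 had log2 levels of 7.99, 7.97, 9.40 and 9.72 in growing and 8.75, 8.15, 9.62 and 8.85 in plateau follicles. Growing follicles 3 and 4 and plateau follicle 3 were high, and the ratio was 0.07 ± 0.68. CHAF1B had 8.19, 8.21, 8.26 and 8.84 in growing and 8.41, 8.72, 8.59 and 8.52 in plateau follicles. The plateau follicles lay above 3 of the growing follicles and below growing follicle 4, and the ratio was 0.19 ± 0.36.

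Most of the genes varied together over the follicles. The correlation between pairs of the 34 genes over the 8 follicles had a median of 0.51 and was positive for 79.9% of pairs of genes. Pairs of all named genes had a median of 0.00 and 49.9% positive. The mitosis genes described below varied together more closely, with a median of 0.90 and 93.5% positive. The other replication genes described below had 0.17 and 59.8%. Each of the 34 genes was also set against the median of the other 33. This correlation was at least 0.8 for 20 genes and under 0.5 for 9. It was highest for PCNA (0.98), ORC1 (0.98), GMNN (0.96) and MCM5 (0.95). The 9 genes under 0.5 were MCM2 (0.06), ORC6 (0.29), CDT1 (0.15), MCM10 (-0.31), GINS1 (0.20), POLA1 (0.07), POLD1 (-0.47), POLE (0.45) and CCNE1 (0.35). Of these, MCM10, POLD1 and POLE were near background and ORC6 and CDT1 differed between dyes. All these correlations share the same 8 follicles, 2 slides and normalization, and are given as a description.

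Other genes of the pathway varied less between follicles, with a median range of 1.05 against 1.91. Of 72 further replication and G1/S genes, 65 had a probe, 25 of which were higher and 40 lower in plateau follicles with a median ratio of -0.05. One of them, SKP2, met the criterion, against 1.03% of all named genes. SKP2, the substrate receptor of a ubiquitin ligase that removes the inhibitor p27, had levels of 9.87, 10.63, 11.54 and 11.28 in growing and 10.00, 9.53, 10.75 and 10.19 in plateau follicles. All plateau follicles were below growing follicles 3 and 4, but they overlapped with growing follicles 1 and 2. The ratio was -0.71 ± 0.58, lower in 3 of 4 pairs (limma, unadjusted p 0.0325, adjusted p 0.9999). The lowest ratios after SKP2 were those of POLE3, an accessory subunit of polymerase epsilon (-0.67 ± 0.65), and MCMBP, which binds the helicase (-0.60 ± 0.58). The highest were those of SHMT1, a folate enzyme (0.79 ± 0.87), CUL4A, the scaffold of a ubiquitin ligase (0.51 ± 0.40), and TFDP2, a partner of E2F (0.36 ± 0.55). CUL4A, POLE3 and DSCC1, of a clamp-loading complex, had stages that did not overlap (3 of 65, against 1.52% of all named genes), at less than 1.5-fold for CUL4A and DSCC1. The medians of the 65 genes ran from -0.18 in growing follicle 2 to 0.30 in growing follicle 4, the same ends as in the 34 genes.

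Mitosis genes, which act after replication, had the same growing follicles high and low, and a wider median range of 2.89. The 31 of 32 with a probe had medians of -1.31, -0.85, 1.17 and 1.34 in growing and 0.00, -1.49, 0.62 and 0.44 in plateau follicles. The low growing follicles were again 1 and 2, and plateau follicle 2 was the lowest of all. Of the 31, 7 were higher and 24 lower in plateau follicles, none at the criterion, with a median ratio of -0.15. The pairs differed from those of the replication genes: the mitosis median was 1.04 in pair 1 and -0.47 in pair 2, where the replication genes had 0.25 and 0.15. The lowest ratios were those of PTTG1, the securin (-0.86 ± 2.05), UBE2C, a ubiquitin-conjugating enzyme (-0.64 ± 2.47), and AURKB, the kinase Aurora B (-0.62 ± 0.97). The highest were those of the kinesin KIF11 (0.52 ± 1.25), the spindle gene ASPM (0.51 ± 0.95) and CENPF of the kinetochore (0.18 ± 0.87).

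**Figure D5:**
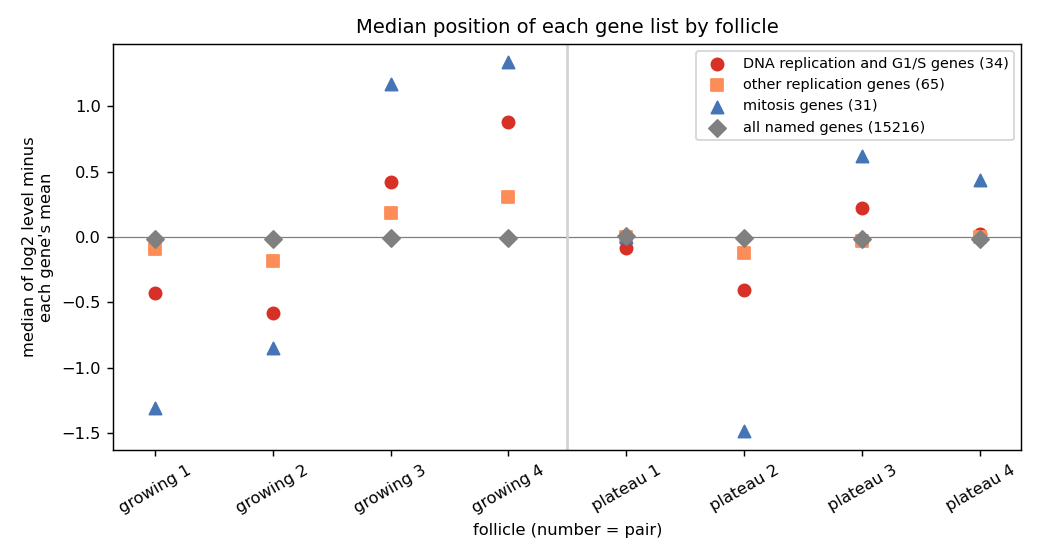
Median, in each follicle, of the log2 level minus each gene's mean over the 8 follicles, for the 34 replication and G1/S genes, 65 other replication genes, 31 mitosis genes and all 15216 named genes. The 3 cell cycle lists are low in growing follicles 1 and 2 and high in growing follicles 3 and 4, and all named genes stay within 0.02 of 0.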

How the data were processed

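The authors scanned 8 Agilent-made EmbryoGENE arrays (2 slides, dyes exchanged between them) and deposited the background and spot intensity of each channel, and a table of log2 Cy5 over Cy3 ratios. Background subtraction, loess and quantile normalization in a limma-based program are stated for that table. Scanner files were used as the main source: intensities were corrected by normexp (offset 50) and normalized by loess within and quantile between arrays in limma 3.58.1 (R 4.3.3). The deposited log2 ratios correlated with the same steps under plain subtraction at r of at least 0.9997, which gave their direction. Median raw signals were 187 to 438 per array and channel, and the number of follicle pairs limits the precision. Control and excluded spots (12 to 30 per array) were left out. A spot was above background when it exceeded the mean of 757 negative spots by 2 SDs. Gene names came from the platform annotation, with 1524 probes updated through synonyms, and 22004 probes were unnamed.

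Arrays at the same position of both slides were averaged with the sign turned, as their ratios matched. Over the brighter probes, these ratios, each minus its slide's mean, correlated at 0.87 to 0.94. The correlations for other positions, -0.47 to -0.14, are drawn below 0 by taking off the slide mean. Limma's moderated test (lmFit, eBayes) set the 4 pair means against 0, with Benjamini-Hochberg adjustment over all probes. The fit was tested on simulated data. Values in every follicle are printed for the 4 genes of largest ratio in each direction, the 4 of widest range, the 4 of smallest SD over pairs and the brightest of each role; of the other lists, those at the criterion and the 3 of largest ratio each way are named. The members and lists were chosen with earlier results of these data known. Alternatives covered the normalization, probe choice, replication unit, slide and each pair. A planned search of promoter motifs was not run, as no sequence was at hand.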

Additional observations from a re-analysis of the deposited data

Results flagged for a closer look

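Of 102 groups of 4 values tested (each gene's growing levels, plateau levels and pair ratios), 1 held a follicle far from the others by Dixon's test, which flags about 5% of groups by chance. It was CHAF1B in the growing group, where growing follicle 4 had a log2 level of 8.84 and the other growing follicles had 8.19 to 8.26. Growing follicle 4 was also the highest follicle for 23 of the 34 genes.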

How the results depend on the processing

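The median ratio of the 34 genes stayed between -0.26 (without pair 1) and 0.11 (without pair 4) when each pair was left out, against -0.08 with all pairs; the genes higher in plateau ran from 7 to 21, those at the criterion from 0 to 1 and probes at the criterion from 338 to 1538, against 297. Without quantile normalization 14 genes were higher in plateau. The arrays with plateau in Cy5 alone gave 9 higher, 2 genes at the criterion (CDT1 and RRM2) and 1049 probes, and those with growing in Cy5 alone gave 14 higher, 1 gene (CCNE1) and 851 probes. Under a random replicate block for the pairs, with dye in the model, 8 genes were higher and 0 at the criterion, but 673 probes met it, and 714 did when the 8 arrays were taken as independent. The cause of these shifts was not tested. No gene of the set passed an adjusted p of 0.05 under any alternative (lowest adjusted p 0.499). The deposited ratios, no background correction, median centring, only probes above background and the mean of a gene's probes left the median between -0.09 and -0.07 with 7 to 9 genes higher. Leaving out plateau follicle 3 was chosen after seeing the data.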

Other observations

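Of the 65 other replication genes and 31 mitosis genes, those named here were chosen after their values were seen, by their correlation over the 8 follicles with the median of the 34 genes, which is given as a description. CDC20, an activator of the anaphase-promoting complex, had a correlation of 0.99, and DUT, which removes dUTP, one of 0.98. Log2 levels of DUT were 9.74, 9.41, 12.06 and 12.63 in growing and 10.32, 9.56, 10.87 and 10.74 in plateau follicles. The mitotic kinase gene CDK1 (0.98), the histone chaperone gene ASF1B (0.98) and RPA2, a subunit of the single-strand binding protein (0.97), had the same high and low growing follicles. Among the lowest correlations were those of E2F5 (-0.74), RRM2B (-0.69) and RB1, the E2F inhibitor (-0.65). RB1 had log2 levels of 10.79 and 10.81 in growing follicles 1 and 2 and 10.41 and 10.44 in growing follicles 3 and 4.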
